A study of Mus musculus with 17 samples.

Results

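The genes described here are the period, cryptochrome and D-box arms of the circadian clock in mouse heart, 10 genes of the 41126 in each deposited table. They were chosen by name: the period genes Per1, Per2 and Per3, the cryptochromes Cry1 and Cry2, the CLOCK-BMAL1 repressor Ciart, the PAR bZIP factors Dbp, Tef and Hlf, and their antagonist Nfil3. All 10 were among the 15931 genes that passed the filter on low counts, and none carried the authors' mark for genes with too many fragments to count. Each library held between 31 fragments (Per2 in TAC 6 week vehicle 1) and 4444 fragments (Tef) of any one of them.

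Hearts came from C57BL/6 mice fed normal chow under 12 h of light and 12 h of dark, and were taken at about zeitgeber time 10. Of the 17 libraries, 3 were Control, and the others came from mice after transverse aortic constriction (TAC), a surgical narrowing of the aorta that raises the load on the left ventricle. The TAC groups received daily vehicle or daily SR9009, a synthetic activator of REV-ERB alpha and REV-ERB beta, which are repressors of the nuclear receptor family: TAC 1 week vehicle (n = 4), TAC 1 week SR9009 (n = 4), TAC 6 week vehicle (n = 3) and TAC 6 week SR9009 (n = 3). No sham operation, vehicle or week is given for Control, and neither sex nor age is given for any group. Whether each replicate is a different mouse is not said in the labels, and the tests therefore weigh differences against a spread between libraries that may be technical. Time after TAC cannot be told apart from age, length of dosing or batch.

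In the mammalian clock, CLOCK and BMAL1 (the product of Arntl) bind E-boxes and drive the Per and Cry genes, whose proteins return to the nucleus and repress CLOCK-BMAL1. The same activators drive Dbp, and the PAR bZIP proteins DBP, TEF and HLF then activate genes through D-boxes, which NFIL3 occupies as a repressor. REV-ERB proteins repress Arntl and Nfil3 through a shared response element, so that in most mouse tissues Nfil3 and Arntl peak at a different time of day from Dbp and the Per genes, and Cry1 peaks later than the Per genes.

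The following 30-base stretches show where the letters of these elements stand in the promoters of the genes whose levels are described next. RefSeq promoter windows of build GRCm38.p6, reaching from 250 bases before to 50 bases after the start of transcription, were found for 9 of the 10 genes and gave 11 windows; Per2 was not among them. The letters CACGTG and CACGTT (E-box), TTANGTAA (D-box), TAGGTCA and GGGTCA (element of REV-ERB and ROR), and TGACGTCA and TGACGT (cAMP response element, CRE, and its core) were searched on both strands, and TGACGT lies within TGACGTCA. Of 32851 promoter windows, CACGTG stood in 7.15%, CACGTT in 4.68%, TTANGTAA in 2.32%, TAGGTCA in 2.61%, GGGTCA in 13.7%, TGACGTCA in 1.79% and TGACGT in 7.51%. Each sequence is written 5′ to 3′ along the gene's own strand, with the matched letters in capitals. The first lines hold the E-box letters of Per1, Cry1, Ciart and Tef:
Per1 E-box, chr11:69098771-69098800, plus strand: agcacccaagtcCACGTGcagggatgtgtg
Cry1 E-box, chr10:85185097-85185126, minus strand: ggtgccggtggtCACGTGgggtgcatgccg
Ciart distal E-box, chr3:95882327-95882356, minus strand: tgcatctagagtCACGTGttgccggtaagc
Ciart middle E-box, chr3:95882269-95882298, minus strand: cgcagggggaggCACGTGcagaaccgcacg
Ciart proximal E-box, chr3:95882255-95882284, minus strand: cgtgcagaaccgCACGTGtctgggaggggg
Tef E-box of one start, chr15:81802534-81802563, plus strand: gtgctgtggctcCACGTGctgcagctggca
Tef E-box of the other start, chr15:81811264-81811293, plus strand: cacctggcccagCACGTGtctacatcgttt

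The other elements set Per3, Nfil3 and Hlf apart within the family. Per3 carried a pair of D-box matches, Nfil3 the REV-ERB and ROR letters on the opposite strand (read here as TGACCTA), Hlf a full CRE next to its start, and Per1 the CRE core at its other start:
Per3 distal D-box, chr4:151044852-151044881, minus strand: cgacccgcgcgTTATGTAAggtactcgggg
Per3 proximal D-box, chr4:151044805-151044834, minus strand: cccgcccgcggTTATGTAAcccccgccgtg
Nfil3 REV-ERB and ROR element, chr13:52981033-52981062, minus strand: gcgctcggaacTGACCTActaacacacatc
Hlf CRE, chr11:90390908-90390937, minus strand: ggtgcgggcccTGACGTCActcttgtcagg
Per1 CRE core, chr11:69100008-69100037, plus strand: gagctcagcggcTGACGTcggtttccctgg
In the Ciart promoter the E-box letters began 116, 58 and 44 bases before the start. Cry1 and Cry2 also held CACGTT on the opposite strand, 79 and 166 bases before the start. No searched letters stood in the Dbp window, and GGGTCA stood in none of the 11 windows. A match is a description of these letters in these windows and not evidence that a factor binds there.

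Library totals ran from 8.683 to 15.81 M fragments, and those of TAC 6 week vehicle, 13.35 to 15.81 M, all lay above those of Control, 9.678 to 10.14 M. The heart label was checked against ventricular cardiomyocyte markers, of which 8 of 9 were counted (Myh6 carried the too-many-fragments mark), and their summed level was 39000 to 55700 CPM (a gene's fragments per M of the scaled library total) over all libraries. Summed markers of thymus and lung reached at most 2.38 CPM. Summed markers of other cell types differed between the groups: the 6 fibroblast markers summed to 1010 to 1030 CPM in Control, 1230 to 1700 in TAC 1 week vehicle, 1270 to 2250 in TAC 1 week SR9009, 1300 to 1710 in TAC 6 week vehicle and 1100 to 1280 in TAC 6 week SR9009. The 6 macrophage markers summed to 253 to 277, 364 to 428, 378 to 549, 348 to 420 and 282 to 323 CPM in the same order. Skeletal muscle markers summed to 1540 to 1610, 2440 to 3410, 2460 to 3320, 4290 to 6310 and 2750 to 3220 CPM, atrial markers to 51.8 to 103, 192 to 584, 226 to 953, 361 to 903 and 234 to 289 CPM, and mesothelial markers to 62.9 to 76.3, 48.8 to 61.7, 31.5 to 54.7, 12.9 to 20.1 and 10.3 to 25.9 CPM. Erythroid markers summed to 1660 CPM in TAC 1 week SR9009 2 and to at most 645 CPM in the others. The part of these cell types in the results was not tested, and in whole hearts fewer cells of a type and less RNA per cell cannot be told apart. Nor can expression of a listed gene by another cell type. The skeletal muscle list holds Ckm and Acta1 and the atrial list Nppa, which ventricular cardiomyocytes can also express.

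One library stood apart in these genes. TAC 6 week vehicle 1 had the lowest level of all 17 libraries for 7 of the 10 genes, and lay below all 3 TAC 6 week SR9009 libraries for the same 7 (Per1, Per2, Per3, Cry2, Dbp, Tef and Hlf). It lay below both other TAC 6 week vehicle libraries for 9 of the 10. Its Arntl was 42.8 CPM, against 3.57 and 2.72 CPM in the other TAC 6 week vehicle libraries and 27.5 to 41.0 CPM in TAC 6 week SR9009. Myh7, the slow myosin heavy chain that rises under load, and Fkbp5, a glucocorticoid target, followed the same split: Myh7 was 561 CPM there against 2759 and 3005 CPM, and Fkbp5 was 19.5 CPM against 78.5 and 93.7 CPM. Cry1 and Nfil3 did not follow that split. In this library they were 14.3 and 17.8 CPM, above all 3 TAC 6 week SR9009 libraries (9.77 to 13.5 and 12.9 to 17.5 CPM). The label was kept. Whether the library was exchanged with one of another group or the heart was taken at another time of day was not tested, and either would change what the 6 week values of these genes mean. Tests of the family, most list counts and the likenesses that use this library are given below with and without it. Some genes of the lists are given only with it or only without it. The library was set apart by the values of these same genes, so no fit without it is independent support.

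**Figure D1:**
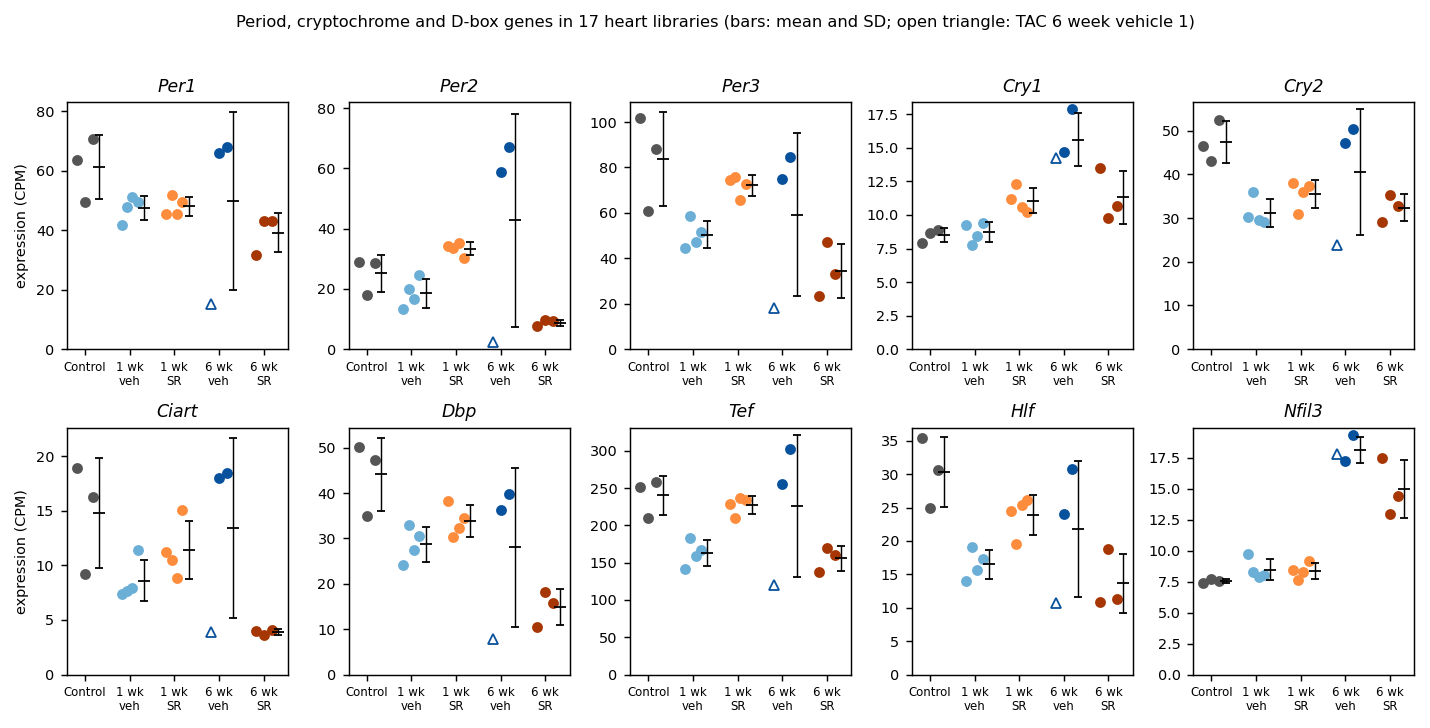
Expression of each gene in CPM (vertical axes from 0) in the 17 libraries by group (horizontal axis; veh, vehicle; SR, SR9009; wk, week after TAC). Filled points are libraries, bars are the mean and SD of a group, and the open triangle is TAC 6 week vehicle 1, which sits at 2.28 CPM for Per2 while the other TAC 6 week vehicle libraries sit at 58.9 and 67.2 CPM.

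Per length of transcript, Tef had the highest mean level of the family in each of the 5 groups, and Cry1 the lowest in Control. In Control, the level per kilobase of annotated exon was 30.5 ± 3.38 CPM per kb for Tef (SD, n = 3). Dbp followed with 14.7 ± 2.69 and Per1 with 10.9 ± 1.90 CPM per kb, then Per3 with 8.71 ± 2.15, Cry2 with 7.49 ± 0.754 and Ciart with 6.54 ± 2.22. The lowest were Hlf with 4.54 ± 0.794, Per2 with 4.30 ± 1.05, Nfil3 with 3.72 ± 0.0764 and Cry1 with 2.55 ± 0.158 CPM per kb. From Dbp down to Nfil3 each gene differed from the next by less than their SDs added together, so the order of neighbours within that run is not resolved. Tef above it and Cry1 below it differed from their neighbours by more. The lower end of the order was another one elsewhere: the lowest mean was that of Hlf in TAC 1 week vehicle (2.47 CPM per kb, against 2.61 for Cry1) and in TAC 6 week vehicle (3.26 against 4.67), and that of Per2 in TAC 6 week SR9009 (1.5 against 3.39). Levels from here on are CPM, not divided by length.

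The period genes come first. PER proteins are the rhythmic, limiting partners of the repressor complex, and Per1 is also induced directly by glucocorticoids and cAMP. Per2 (ENSMUSG00000055866.9, GRCm38 chromosome 1, 91415982 to 91459324, minus strand) was 29.0, 18.1 and 28.5 CPM in Control and 13.3, 19.9, 16.6 and 24.6 CPM in TAC 1 week vehicle. It was 34.3, 33.6, 35.3 and 30.2 CPM in TAC 1 week SR9009. By 6 weeks its level was 2.28, 58.9 and 67.2 CPM in vehicle and 7.66, 9.55 and 9.20 CPM in SR9009. The 4 TAC 1 week SR9009 libraries thus lay above every Control and TAC 1 week vehicle library, the 3 TAC 6 week SR9009 libraries lay below them all, and the TAC 6 week vehicle libraries held both the lowest and the highest values of the series.

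Per3 (ENSMUSG00000028957.7, chromosome 4, 151003652 to 151044665, minus strand), a period gene that the core loop can run without, was 102, 61.0 and 88.2 CPM in Control and 44.6, 58.5, 47.1 and 51.7 CPM in TAC 1 week vehicle. It was 74.5, 76.0, 65.5 and 72.7 CPM in TAC 1 week SR9009, a range that did not overlap TAC 1 week vehicle. At 6 weeks it was 18.2, 74.7 and 84.7 CPM in vehicle and 23.4, 47.1 and 33.0 CPM in SR9009. Per1 (ENSMUSG00000020893.12, chromosome 11, 69095217 to 69109960, plus strand) was 63.7, 49.7 and 70.6 CPM in Control, 41.9, 47.7, 51.2 and 49.6 CPM in TAC 1 week vehicle and 45.4 to 52.0 CPM in TAC 1 week SR9009, ranges that overlapped. At 6 weeks Per1 was 15.1, 66.1 and 68.1 CPM in vehicle and 31.6, 43.0 and 43.2 CPM in SR9009.

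The cryptochromes, the light-insensitive repressor partners of the PER proteins, did not move alike. Cry1 (ENSMUSG00000020038.9, chromosome 10, 85131700 to 85185064, minus strand), the stronger repressor of the pair, was 7.90, 8.69 and 8.90 CPM in Control and 9.23, 7.79, 8.44 and 9.42 CPM in TAC 1 week vehicle. It was 11.2, 12.3, 10.6 and 10.2 CPM in TAC 1 week SR9009 and 14.3, 14.7 and 17.9 CPM in TAC 6 week vehicle. In TAC 6 week SR9009 it was 13.5, 9.77 and 10.7 CPM. The highest values were therefore the 3 TAC 6 week vehicle libraries, TAC 6 week vehicle 1 among them, with no overlap with any other group. Cry2 (ENSMUSG00000068742.6, chromosome 2, 92403646 to 92434043, minus strand) was 46.5, 43.1 and 52.5 CPM in Control and 30.3, 36.0, 29.6 and 29.1 CPM in TAC 1 week vehicle, which did not overlap. It was 30.9 to 38.0 CPM in TAC 1 week SR9009, 23.9, 47.2 and 50.3 CPM in TAC 6 week vehicle and 29.1, 35.2 and 32.8 CPM in TAC 6 week SR9009.

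Ciart (ENSMUSG00000038550.5, chromosome 3, 95878503 to 95882251, minus strand) encodes CHRONO, a repressor that binds BMAL1. It was 18.9, 9.19 and 16.3 CPM in Control, 7.38, 7.68, 7.90 and 11.4 CPM in TAC 1 week vehicle and 11.2, 10.5, 8.87 and 15.1 CPM in TAC 1 week SR9009. The 6 week values were 3.89, 17.9 and 18.4 CPM in vehicle and 3.97, 3.58 and 4.07 CPM in SR9009. TAC 6 week SR9009 had the lowest mean and the smallest SD of the 5 groups, and TAC 6 week vehicle 1 fell within its range.

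Of the PAR bZIP genes, Dbp (ENSMUSG00000059824.5, chromosome 7, 45705088 to 45710203, plus strand), the most direct E-box output of the clock, was 50.1, 35.0 and 47.3 CPM in Control and 24.1, 32.9, 27.4 and 30.5 CPM in TAC 1 week vehicle. It was 38.3, 30.3, 32.4 and 34.5 CPM in TAC 1 week SR9009. The 6 week libraries gave 7.86, 36.4 and 39.9 CPM in vehicle and 10.5, 18.2 and 15.8 CPM in SR9009. The TAC 6 week SR9009 range lay below that of every other group apart from TAC 6 week vehicle 1.

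Tef (ENSMUSG00000022389.9, chromosome 15, 81802421 to 81826863, plus strand), thyrotroph embryonic factor and a D-box activator, was 252, 210 and 259 CPM in Control and 142, 184, 159 and 167 CPM in TAC 1 week vehicle. It was 228, 209, 236 and 234 CPM in TAC 1 week SR9009, above every TAC 1 week vehicle library. Those at 6 weeks were 120, 256 and 302 CPM in vehicle and 138, 170 and 160 CPM in SR9009. Hlf (ENSMUSG00000003949.11, chromosome 11, 90336536 to 90390895, minus strand), the third PAR bZIP activator, was 35.5, 24.9 and 30.6 CPM in Control and 14.0, 19.1, 15.6 and 17.3 CPM in TAC 1 week vehicle. It was 24.6, 19.5, 25.4 and 26.2 CPM in TAC 1 week SR9009, also above every TAC 1 week vehicle library, and at 6 weeks 10.7, 24.0 and 30.7 CPM in vehicle and 10.8, 18.8 and 11.4 CPM in SR9009.

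Nfil3 (ENSMUSG00000056749.7, chromosome 13, 52967209 to 52981073, minus strand), the D-box repressor also known as E4BP4, differed mostly between weeks. It was 7.38, 7.69 and 7.56 CPM in Control, 9.69, 8.25, 7.90 and 8.01 CPM in TAC 1 week vehicle and 8.43, 7.59, 8.25 and 9.19 CPM in TAC 1 week SR9009. At 6 weeks it was 17.8, 17.2 and 19.3 CPM in vehicle and 17.5, 12.9 and 14.4 CPM in SR9009. All 6 libraries at 6 weeks lay above all 11 others. TAC 6 week vehicle 1, apart in most of the family, lay between the other TAC 6 week vehicle libraries for this gene.

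**Figure D2:**
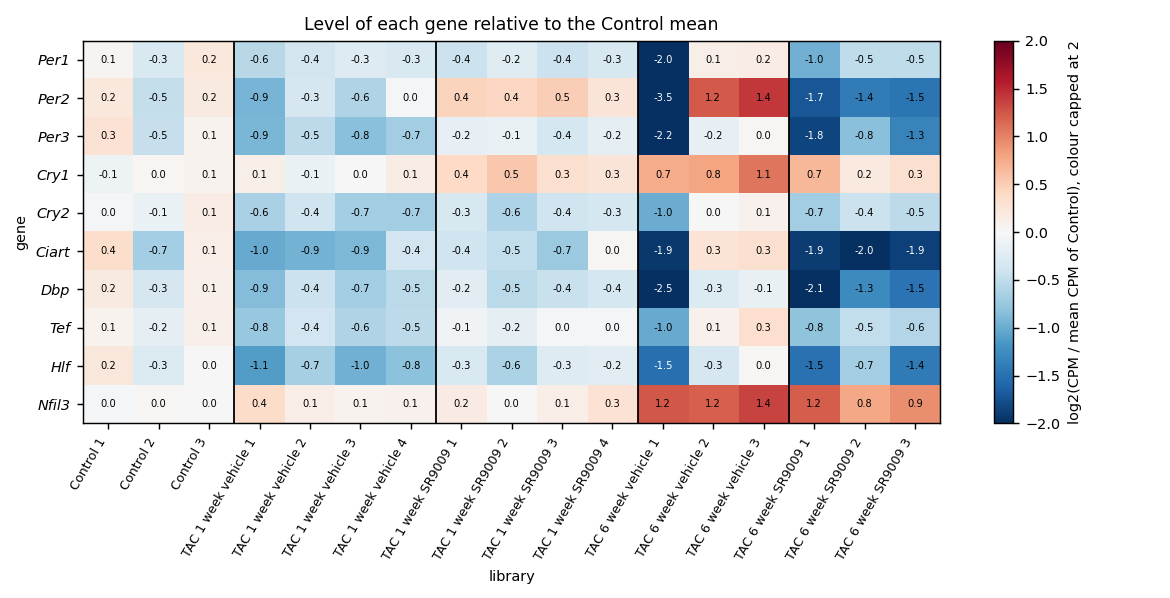
Level of each gene (rows) in each library (columns, grouped by vertical lines) as log2 of its CPM over the mean CPM of Control, with colour running from blue (lower) to red (higher) and held at 2 in either direction. Nfil3 and Cry1 are red across all TAC 6 week vehicle libraries, whereas TAC 6 week vehicle 1 is blue for the other 8 genes and the TAC 6 week SR9009 libraries are blue for the same 8.

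The first comparison asked how the family stood 1 week after TAC without drug. Cry2 and Hlf fell, and no gene of the family rose. Cry2 fell by 0.60 ± 0.18 (SE) on the log2 scale against Control (edgeR quasi-likelihood test, Benjamini-Hochberg adjusted p = 0.0311), and Hlf fell by 0.88 ± 0.26 (edgeR adjusted p = 0.0311). That was 2 of 10 genes, both lower, where 14.8% of all tested genes were called, 8.91% higher and 5.92% lower. The other log2 fold changes were -0.76 for Ciart, -0.73 for Per3, -0.62 for Dbp, -0.56 for Tef, -0.42 for Per2 and -0.36 for Per1, with edgeR adjusted p from 0.0629 (Tef) to 0.653 (Per2). Cry1 was at 0.04 (95% interval -0.24 to 0.32) and Nfil3 at 0.16 (-0.10 to 0.42). The median log2 fold change of the 10 genes was -0.58, and that of all genes 0.

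These calls depend on the spread that all 17 libraries share. With TAC 6 week vehicle 1 left out of the fit, an alternative added after the data were seen, the log2 fold changes stayed as they were and 7 of 10 genes were called lower: Per1, Per3, Cry2, Ciart, Dbp, Tef and Hlf, with edgeR adjusted p from 0.00125 (Cry2) to 0.0399 (Per1). There, 17.5% of 16102 genes were called, 7.22% lower. The fit of Control and TAC 1 week vehicle alone also called 7 lower, where 24.1% of 15063 genes were called and 10.3% lower. With all the other libraries kept, leaving out Control 1, Control 3, or vehicle library 1, 3 or 4 left 0 genes of the family called, and leaving out Control 2 left 1.

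At 6 weeks without drug, the pair that stood out against Control was Nfil3 and Cry1. Nfil3 rose by 1.26 ± 0.12 on the log2 scale, 2.40-fold (edgeR adjusted p = 5.78e-06), and Cry1 rose by 0.88 ± 0.13, 1.84-fold (edgeR adjusted p = 0.000311). That was 2 of 10 genes, both higher, where 20.7% of all genes were called, 10.7% higher and 9.96% lower. The median log2 fold change of the family was -0.18 and that of all genes -0.01. Per2 was at 0.77 ± 0.57 (edgeR adjusted p = 0.365), and without TAC 6 week vehicle 1 it was higher by 1.33 ± 0.19 (edgeR adjusted p = 9.18e-05), 2.51-fold. In that fit 3 of 10 genes were called, all higher, against 25.2% of 16102 genes in either direction and 13.1% higher. With all libraries Per3, Dbp and Hlf stood at -0.50 ± 0.35, -0.65 ± 0.34 and -0.47 ± 0.27, and without that library at -0.07 ± 0.20, -0.21 ± 0.17 and -0.14 ± 0.19. Per1, Cry2, Ciart and Tef changed sign, from -0.30 ± 0.32, -0.23 ± 0.18, -0.14 ± 0.37 and -0.09 ± 0.21 with all libraries to 0.13 ± 0.13, 0.04 ± 0.11, 0.30 ± 0.24 and 0.22 ± 0.11 without it. None of the 7 was called in either fit. With library total as a covariate, Cry1 against Control was no longer called, and Nfil3 was.

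Between the vehicle groups, from 1 to 6 weeks, the same pair rose. Nfil3 rose by 1.10 ± 0.11 (edgeR adjusted p = 3.52e-05), 2.15-fold, and Cry1 by 0.84 ± 0.12 (edgeR adjusted p = 0.000805), 1.79-fold. That was 2 of 10, where 12.1% of genes were called, 6.18% higher and 5.90% lower. The median log2 fold change of the family was 0.44 and that of all genes -0.02. The other 8 genes were not called with all libraries, at 1.19 ± 0.53 for Per2, 0.63 ± 0.36 for Ciart, 0.47 ± 0.20 for Tef, 0.40 ± 0.26 for Hlf, 0.38 ± 0.18 for Cry2, 0.23 ± 0.33 for Per3, 0.06 ± 0.30 for Per1 and -0.04 ± 0.33 for Dbp (edgeR adjusted p from 0.126 for Tef to 0.96 for Dbp). The comparison shares its TAC 6 week vehicle libraries with the one before it. Without TAC 6 week vehicle 1, 9 of 10 genes were called higher, all but Dbp, where 16.3% of 16102 genes were called and 8.47% higher. Per2 was then higher by 1.75 ± 0.18 (edgeR adjusted p = 6.71e-06), Ciart by 1.06 ± 0.23 (0.00514), Tef by 0.78 ± 0.11 (0.000138), Hlf by 0.73 ± 0.19 (0.0144), Per3 by 0.66 ± 0.19 (0.0282), Cry2 by 0.65 ± 0.10 (0.000577) and Per1 by 0.49 ± 0.13 (0.0135). Dbp was at 0.41 ± 0.17 (edgeR adjusted p = 0.108). With TAC 6 week vehicle 2 or TAC 6 week vehicle 3 left out instead, 2 of 10 were called, Nfil3 and Cry1. With library total as a covariate Nfil3 alone of the family was called, and depth and time cannot be told apart, since all TAC 6 week vehicle totals exceeded all TAC 1 week vehicle totals, 8.683 to 12.575 M.

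Between the SR9009 groups, from 1 to 6 weeks, Nfil3 rose, and Ciart and Dbp fell. Nfil3 rose by 0.84 ± 0.11, 1.79-fold (edgeR adjusted p = 0.000992). Ciart fell by 1.55 ± 0.42 on the log2 scale (edgeR adjusted p = 0.0296) and Dbp fell by 1.19 ± 0.35 (edgeR adjusted p = 0.0427). That was 3 of 10, 1 higher and 2 lower, where 8.95% of genes were called, 3.29% higher and 5.66% lower. Per2 was at -1.92 ± 0.61 (edgeR adjusted p = 0.0556), Per3 at -1.08 ± 0.35 (0.0589), Hlf at -0.83 ± 0.27 (0.0603) and Tef at -0.54 ± 0.20 (0.0965), each with no overlap between the groups. How many of all genes lacked overlap was not counted. Cry1 was at 0.03 (95% interval -0.22 to 0.29) and Cry2 at -0.13 (-0.51 to 0.24). The median log2 fold change of the family was -0.68 and that of all genes 0.01.

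Here too the calls changed with the shared spread. With TAC 6 week vehicle 1 left out of the fit, which is in neither group, 7 of 10 were called, Nfil3 higher and Per2, Per3, Ciart, Dbp, Tef and Hlf lower, with 11.3% of genes called, 4.32% higher and 6.96% lower. Per2 was then at -1.92 ± 0.19 (edgeR adjusted p = 7.14e-05). Nfil3 was called in all 15 other settings tried for this comparison, with log2 fold changes from 0.71 to 0.93. Dbp lost its call on leaving out any single library of these groups, and Ciart lost its call without TAC 1 week SR9009 1 or without any 1 of the 3 TAC 6 week SR9009 libraries.

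SR9009 was compared with vehicle at each week. At 1 week no gene of the family passed in edgeR, where 0% of genes were called in either direction, 0% higher and 0% lower. By unadjusted p under 0.05, 3 of the 10 (Cry1, Tef and Hlf, all toward higher) and 1019 of all genes (6.4%) were below the threshold, and DESeq2 called 13 genes, none of this family. The values were Per2 0.83 ± 0.51, Hlf 0.53 ± 0.24, Per3 0.52 ± 0.31, Tef 0.48 ± 0.18, Ciart 0.39 ± 0.35, Cry1 0.34 ± 0.12, Dbp 0.23 ± 0.30 and Cry2 0.19 ± 0.17 on the log2 scale, with edgeR adjusted p from 0.654 (Cry1) to 0.948 (Dbp). The groups did not overlap for Per2, Per3, Cry1, Tef and Hlf. The share of all genes without overlap was not counted, so this is a description of these libraries only. Per1 was at 0.01 (95% interval -0.59 to 0.61) and Nfil3 at -0.01 (-0.24 to 0.22). The median log2 fold change of the family was 0.37, and that of all genes 0.

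Earlier work on these data had set 3 libraries apart, TAC 6 week vehicle 1, TAC 1 week SR9009 2 and Control 2, by the values of clock genes themselves, so a fit without them is no independent support. In it, Per2 and Tef were called higher in SR9009 at 1 week, by 0.82 ± 0.14 and 0.52 ± 0.08 on the log2 scale (edgeR adjusted p = 0.0398 for both), where 0.0437% of 16013 genes were called and 0.025% higher. None of the family was called with TAC 6 week vehicle 1 alone left out, where Per2 and Tef had edgeR adjusted p = 0.127.

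At 6 weeks all 10 genes had lower mean levels in SR9009 than in vehicle, and none passed in edgeR with all libraries. There, 0.169% of genes were called, 0.119% higher and 0.0502% lower. Unadjusted p was under 0.05 for 8 of the 10 genes and for 2498 of all genes (15.7%). DESeq2 called 1 gene of the family, Ciart, and 259 of all genes. The values were Per2 -2.28 ± 0.63, Ciart -1.78 ± 0.43, Dbp -0.92 ± 0.37, Per3 -0.79 ± 0.36, Hlf -0.70 ± 0.28, Tef -0.54 ± 0.21, Cry1 -0.46 ± 0.13, Per1 -0.34 ± 0.33, Cry2 -0.32 ± 0.19 and Nfil3 -0.28 ± 0.11. The edgeR adjusted p ran from 0.104 (Ciart) to 0.649 (Per1). The median log2 fold change of the family was -0.62, and that of all genes 0. Of the 10, Cry1 was the gene whose groups did not overlap, a trait not counted over all genes.

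Without TAC 6 week vehicle 1, 9 of 10 genes were called lower in SR9009, all but Nfil3, where 9.20% of 16102 genes were called and 5.03% lower. Per2 was lower by a log2 fold change of -2.84 ± 0.20 (edgeR adjusted p = 3.94e-07), from 58.9 and 67.2 CPM to 7.66 to 9.55 CPM. Ciart was at -2.22 ± 0.27 (edgeR adjusted p = 6.85e-05), Dbp at -1.37 ± 0.18 (0.000184), Per3 at -1.22 ± 0.21 (0.00143) and Hlf at -1.03 ± 0.20 (0.00412). Tef was at -0.84 ± 0.11 (0.000192), Per1 at -0.77 ± 0.13 (0.00159), Cry2 at -0.59 ± 0.11 (0.00249) and Cry1 at -0.52 ± 0.14 (0.0239). Nfil3 was at -0.29 (95% interval -0.55 to -0.03; edgeR adjusted p = 0.168). The vehicle arm of that fit has 2 libraries. The library left out was set apart by these same genes, so the fit is no independent support. With TAC 6 week vehicle 2 or TAC 6 week vehicle 3 left out instead, 0 of the 10 genes were called.

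**Figure D3:**
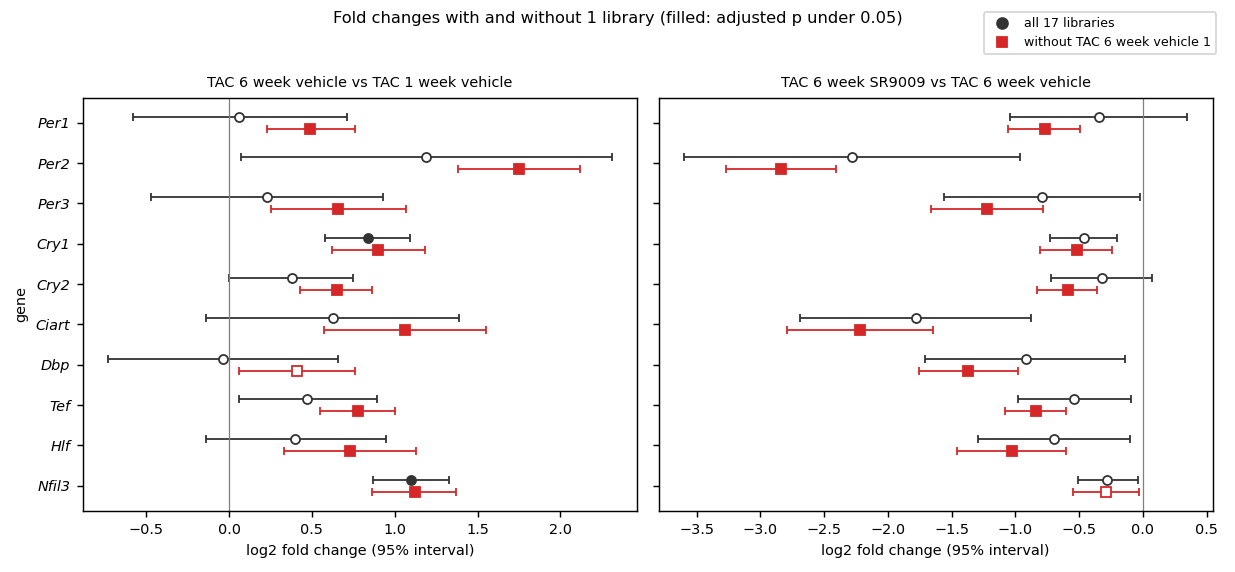
Log2 fold change with its 95% interval (horizontal axes) for each gene (vertical axis), from all 17 libraries (circles) and without TAC 6 week vehicle 1 (squares), filled where the edgeR adjusted p is under 0.05. The left panel compares the vehicle groups and the right panel compares SR9009 with vehicle at 6 weeks, where 0 circles and 9 squares are filled.

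The difference between the 6 week and the 1 week SR9009 effect was tested as an interaction. With all libraries, 0 of the 10 genes passed in edgeR, where 0.119% of genes were called, 0.0942% higher and 0.0251% lower. Unadjusted p was under 0.05 for 7 of the 10 and for 2264 of all genes (14.2%). DESeq2 called 4 of the 10 and 198 of all genes. The largest differences were Per2 at -3.11 ± 0.81 (edgeR adjusted p = 0.123), Ciart at -2.18 ± 0.55 (0.121), Per3 at -1.31 ± 0.48 (0.244) and Hlf at -1.23 ± 0.37 (0.163) on the log2 scale. Cry1 was nearest the threshold, at -0.80 ± 0.17 (0.0872). The median over the family was -1.09 and over all genes 0. Without TAC 6 week vehicle 1, 9 of 10 were called lower, all but Nfil3, where 5.94% of genes were called and 3.06% lower, and Per2 was at -3.67 ± 0.26 (edgeR adjusted p = 7.18e-07). With TAC 6 week vehicle 2 or TAC 6 week vehicle 3 left out instead, 0 of the 10 were called.

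The family was also described by how its genes varied together between libraries of the same group, with the group mean removed from log2 CPM. The 17 points share a library scaling and are given without a p. Per2 and Arntl, the activator gene of the loop, ran opposite, with Pearson r = -0.982 and Spearman rho = -0.936, and r = -0.89 over the 16 libraries without TAC 6 week vehicle 1. Per3 and the PAR bZIP genes ran together: r was 0.978 for Per3 and Dbp (0.909 without that library), 0.977 for Dbp and Tef (0.874) and 0.929 for Tef and Hlf (0.843). Per1 and Per2 had r = 0.972, which was 0.674 without that library. Ciart and Cry2 also had lower r without it. With Per2, r was 0.904 for Ciart (0.594 without that library) and 0.899 for Cry2 (0.361). With Dbp it was 0.871 for Ciart (0.423) and 0.948 for Cry2 (0.741). With Arntl it was -0.87 for Ciart (-0.382) and -0.871 for Cry2 (-0.279). Cry1 and Nfil3 did not share this pattern: with Per2, r was 0.243 for Cry1 and -0.053 for Nfil3, and without TAC 6 week vehicle 1 it was -0.148 and -0.511. Nfil3 and Arntl had r = 0.157, and 0.609 without it. The largest deviations came from the TAC 6 week vehicle group, and over the 14 libraries outside it r was -0.889 for Per2 and Arntl.

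**Figure D4:**
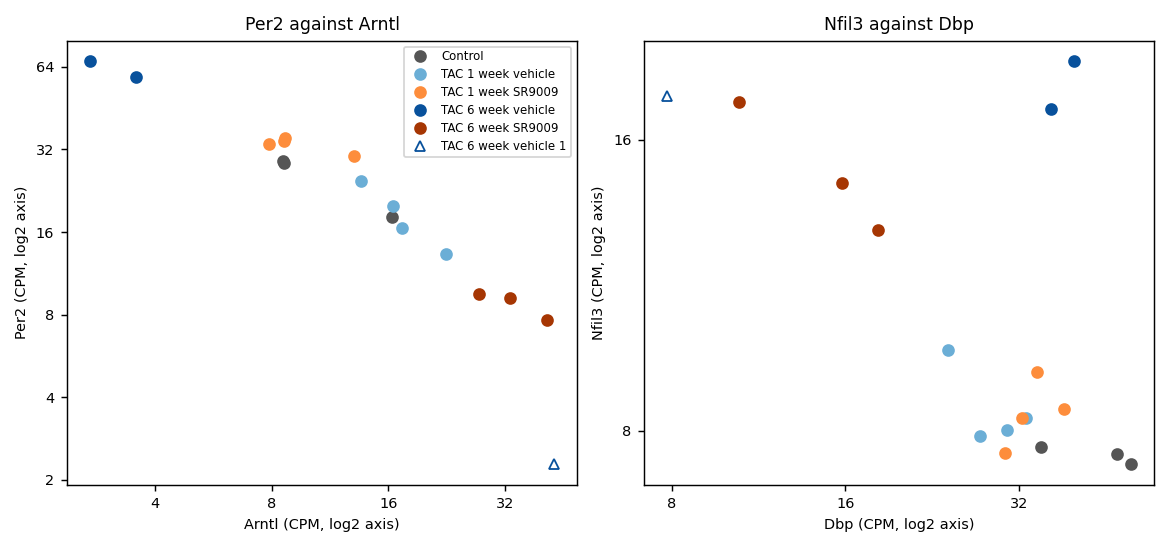
Left, Per2 against Arntl, and right, Nfil3 against Dbp, as CPM on log2 axes, with 1 point per library coloured by group and TAC 6 week vehicle 1 as an open triangle. Per2 runs down as Arntl runs up, from 67.2 CPM at 2.72 CPM of Arntl to 2.28 CPM at 42.8 CPM, whereas the 6 libraries at 6 weeks hold Nfil3 between 12.9 and 19.3 CPM at any level of Dbp.

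Genes outside the family with the most similar pattern were named by Pearson r of log2 CPM over the 17 libraries, among 10792 protein-coding genes with a mean of at least 5 CPM. Sphk2, which encodes a sphingosine kinase, was nearest to Dbp (r = 0.98), Per3 (0.976) and Ciart (0.923). Nr1d2, which encodes REV-ERB beta, was nearest to Tef (0.964), Per2 (0.929) and Hlf (0.917). The nearest genes were Coq10b for Per1 (0.908), Mon2 for Cry2 (0.934), Hbegf for Cry1 (0.928) and Prune2 for Nfil3 (0.967). With group means removed, Sphk2 remained nearest to Per3 (0.964), Nr1d2 to Tef (0.987) and Coq10b to Per1 (0.984), while the nearest gene changed for the other 7, to Nr1d2 for Dbp (0.984) and Gnb5 for Nfil3 (0.904) among them. Over the 16 libraries without TAC 6 week vehicle 1, log2 CPM gave the same nearest gene for 8 of the 10, with Sphk2 at r = 0.971 for Dbp, 0.964 for Per3 and 0.932 for Ciart, Nr1d2 at 0.972 for Tef and 0.924 for Hlf, Coq10b at 0.901 for Per1, Mon2 at 0.914 for Cry2 and Prune2 at 0.967 for Nfil3. Per2 was then nearest to Ankrd12 (0.939, with Nr1d2 at 0.88) and Cry1 to Ednrb (0.924, with Hbegf at 0.922). With group means removed as well, the nearest gene stayed for Ciart, Dbp, Tef and Nfil3, with Nr1d2 at 0.914 for Dbp and 0.93 for Tef and Gnb5 at 0.92 for Nfil3, and changed for the other 6. Sphk2 was then at 0.84 for Per3 and Coq10b at 0.902 for Per1.

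The partners of the loop were read from a list of 12 genes of the core loop, all tested. The shares of all genes called that stand beside the family's counts above apply to each list. In TAC 1 week vehicle against Control, where 14.8% of all genes were called, 1 was higher (Timeless, 0.52 ± 0.13, edgeR adjusted p = 0.0158) and 1 lower (Nr1d1, which encodes REV-ERB alpha, -0.51 ± 0.16, 0.0427), with a median of 0.03. At 6 weeks against Control the same genes were called, Timeless at 0.46 ± 0.14 (edgeR adjusted p = 0.0247) and Nr1d1 at -0.96 ± 0.17 (0.00119), with a median of 0.07, where 20.7% of all genes were called. Without TAC 6 week vehicle 1 Timeless was not called (0.30 ± 0.13, edgeR adjusted p = 0.103), Nr1d1 was at -0.80 ± 0.17 (0.00303), and Rora, a ROR activator gene, was called higher (0.33 ± 0.07, 0.00313). Arntl was called lower in that fit (-1.83 ± 0.34, edgeR adjusted p = 0.00102). With all libraries Arntl had the opposite sign, at 0.55 ± 0.66 (edgeR adjusted p = 0.601), and neither Arntl nor Rora was called. Nr1d1 was 55.8 to 65.2 CPM in Control and 24.0 to 35.8 CPM in TAC 6 week vehicle. Between the SR9009 groups 2 were higher and 1 lower, where 8.95% of all genes were called, with a median of -0.01: Npas2, a CLOCK paralogue, at 1.30 ± 0.27 (0.00889), Clock at 0.37 ± 0.09 (0.0231) and Bhlhe40, an E-box repressor, at -0.79 ± 0.18 (0.0119). Arntl between those groups was at 1.83 ± 0.58 (edgeR adjusted p = 0.0574), from 7.87 to 13.1 CPM at 1 week to 27.5 to 41.0 CPM at 6 weeks, with no overlap, and was called with TAC 6 week vehicle 1 left out of the shared spread (1.83 ± 0.22, 0.000571).

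A list of 20 genes that set the stability of PER and CRY proteins (kinases, ubiquitin ligase parts and a deubiquitinase) was read in the same way. In TAC 1 week vehicle against Control, Cul1, a ubiquitin ligase scaffold, was at -0.19 ± 0.05 (edgeR adjusted p = 0.0204). At 6 weeks against Control 2 were higher and 2 lower, among them Skp1a at 0.21 ± 0.05 (edgeR adjusted p = 0.0114), Fbxw11 at 0.22 ± 0.07 (0.03) and Usp2, a clock-driven deubiquitinase, at -0.60 ± 0.20 (0.0396). That was 4 of 20, a share near the 20.7% of all genes called. In the fit without TAC 6 week vehicle 1, 3 were higher (Skp1a, Fbxw11 and Csnk1a1) and 0 lower, with Usp2 at -0.33 ± 0.13 (edgeR adjusted p = 0.0822) and 25.2% of all genes called. Between the vehicle groups 3 were higher (Skp1a, Cul1 and Csnk2a1) and between the SR9009 groups 2 (Skp1a and Prkaa2), with 0 lower in either, where 12.1% and 8.95% of all genes were called. In that fit Skp1a and Cul1 were called between the vehicle groups and Csnk2a1 was not (0.19 ± 0.06, edgeR adjusted p = 0.0502). The list's medians were 0, 0.05 and 0.02 in these last 3 comparisons.

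Of 27 genes listed as outputs of the clock or of the PAR bZIP factors, 26 were tested. At 1 week against Control 4 were higher and 7 lower, where 8.91% of all genes were called higher and 5.92% lower, with a median of -0.13: Mybpc2, a myosin binding protein of fast muscle, at 1.58 ± 0.19 (edgeR adjusted p = 0.000384), Alas1, a haem synthesis enzyme, at 0.50 ± 0.09 (0.00235) and Ucp3, a mitochondrial carrier, at -1.28 ± 0.27 (0.00618). At 6 weeks against Control 8 were higher and 6 lower, where 10.7% of all genes were called higher and 9.96% lower, with a median of -0.03, Mybpc2 at 1.33 ± 0.19 (0.000223) and Kcnh2, a potassium channel, at -0.75 ± 0.12 (0.000365) among them. There were 9 higher and 7 lower without TAC 6 week vehicle 1, with a median of 0.17. Between the vehicle groups 3 were higher and 1 lower, led by Fmo2 at 1.31 ± 0.19 (0.000805), with a median of 0.10, and without that library 8 were higher and 2 lower, with a median of 0.25. Between the SR9009 groups 4 were higher and 2 lower, with Ucp3 at 1.31 ± 0.28 (0.00917), Hsd11b1 at 0.67 ± 0.16 (0.0158) and Tspan4 at -1.18 ± 0.24 (0.00674), and a median of 0.04; with that library left out of the shared spread 4 were higher and 4 lower. Genes of the list were called in both directions in each of these comparisons.

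Per1 also belongs to lists of 12 glucocorticoid targets and 12 cAMP and CREB targets. Of the former, 4 were higher and 0 lower in TAC 6 week vehicle against Control, with a median of 0.52: Fkbp5 at 1.90 ± 0.37 (edgeR adjusted p = 0.00203), Mt1 at 1.04 ± 0.23 (0.00397) and Mt2 at 1.68 ± 0.45 (0.0143) among them. Of all genes 10.7% were called higher there. Fkbp5 was 13.7 to 19.6 CPM in Control and 19.5 CPM in TAC 6 week vehicle 1, against 78.5 and 93.7 CPM in the other TAC 6 week vehicle libraries. With that library left out, 8 were higher and 0 lower, with a median of 0.85, where 13.1% of 16102 genes were called higher: Fkbp5 was at 2.34 ± 0.18 (edgeR adjusted p = 2.94e-07), Mt1 at 1.36 ± 0.11 (6.87e-07) and Mt2 at 2.11 ± 0.32 (0.000177). At 1 week 0 of the 12 were called in edgeR, 2 had an unadjusted p under 0.05 and DESeq2 called 1. Of all genes, 31.1% had an unadjusted p under 0.05 there and DESeq2 called 2476. With TAC 6 week vehicle 1 left out of the shared spread 3 were higher at 1 week (Fkbp5, Mt1 and Mt2) and 1 lower (Per1). Between the vehicle groups 1 was called, Fkbp5 at 1.32 ± 0.33 (edgeR adjusted p = 0.0145), and without that library 9 were higher and 0 lower, with Fkbp5 at 1.75 ± 0.16 (2.53e-06). Of the latter list 2 were higher and 2 lower at 6 weeks against Control, with Nr4a3 at 1.68 ± 0.57 (0.0452), Pde4d at -0.60 ± 0.12 (0.00167) and Pde4b at -0.44 ± 0.10 (0.00467), and a median of 0.28. Without that library 5 were higher (Sik1, Nr4a2, Nr4a3, Crem and Junb) and the same 2 lower, with a median of 0.49 and Nr4a3 at 2.21 ± 0.29 (edgeR adjusted p = 4.69e-05). At 1 week 1 was higher, Junb at 0.82 ± 0.20 (0.0145), and 1 lower, Pde4d at -0.49 ± 0.11 (0.00714), and with that library left out of the shared spread 3 were higher (Crem, Egr1 and Junb) and 2 lower (Per1 and Pde4d). Between the SR9009 groups Dusp1 was higher by 0.47 ± 0.07 (0.0021) and Fos by 0.96 ± 0.28 (0.0388). In the comparisons of SR9009 with vehicle, with all libraries, no gene of the 5 lists passed in edgeR at either week, and in the interaction 1 did, Dusp1, at 0.57 ± 0.11 (0.0405). At 6 weeks, unadjusted p was under 0.05 for 12 of the 26 outputs and 7 of the 12 glucocorticoid targets, and DESeq2 called 1 and 3 of these lists. At 1 week it was under 0.05 for 0 and 1, and DESeq2 called 0 and 1. Of all genes, 15.7% at 6 weeks and 6.4% at 1 week had an unadjusted p under 0.05, and DESeq2 called 259 and 13. Of the 12 loop partners, 2 at 6 weeks and 1 at 1 week had an unadjusted p under 0.05, and DESeq2 called 0. For the cAMP and CREB targets these were 4 and 1, and for the PER and CRY stability list 0 and 1, with 0 called by DESeq2.

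When TAC 6 week vehicle 1 was left out, genes of all 5 lists were called between SR9009 and vehicle at 6 weeks, where 9.20% of 16102 genes were called, 4.17% higher and 5.03% lower. Of the glucocorticoid targets 0 were higher and 9 lower, with a median of -0.97. Fkbp5 was at -1.90 ± 0.17 (edgeR adjusted p = 2.91e-06), Mt1 at -1.39 ± 0.11 (1.29e-06) and Tsc22d3, which encodes the glucocorticoid-induced leucine zipper, at -1.38 ± 0.12 (2.97e-06). Of the 26 outputs 3 were higher and 8 lower, with a median of -0.15, and of the cAMP and CREB targets 2 were higher and 3 lower, with a median of -0.04. Of the 12 loop partners 4 were higher (Arntl, Arntl2, Clock and Npas2) and 4 lower (Nr1d2, Rora, Bhlhe40 and Bhlhe41). Arntl was at 3.44 ± 0.32 (edgeR adjusted p = 3.82e-06), from 2.72 and 3.57 CPM to 27.5 to 41.0 CPM, opposite in direction to Per2. With all libraries Arntl was not called, at 1.05 ± 0.60 (edgeR adjusted p = 0.419). Of the 20 genes for PER and CRY stability 1 was lower, Usp2 at -0.56 ± 0.13 (0.0155), and 0 higher. In that fit the interaction called 7 of the 12 glucocorticoid targets, 1 higher and 6 lower, Fkbp5 at -2.05 ± 0.22 (edgeR adjusted p = 4.29e-05) and Dusp1 at 0.53 ± 0.11 (0.0086) among them, where 5.94% of all genes were called. At 1 week no gene of the lists was called with that library left out of the shared spread.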

How the data were processed

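Total RNA of mouse hearts was sequenced from TruSeq libraries made from 1 ug of RNA, per the labels' protocols. The authors deposited 1 table per library of 41126 genes in a Cuffdiff-like layout, per the file headers. Raw fragments are the authors' estimated counts, not normalized, with 2289 to 2678 values per library not whole. The deposited scaled fragments, a signal scaled by 1 factor per library, and the authors' deposited FPKM were not used. Reads were placed on mm10, per the submitters' processing notes. Not given in the sources used here are the aligner, the annotation and the strand setting of the counter.

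GENCODE M21 (GRCm38) gave symbols for 40252 gene IDs and exonic lengths; 874 IDs were not matched. The 78 genes marked HIDATA in any library, whose zeros are not measurements, were left out of totals and tests. Estimated counts were rounded and fitted with edgeR 4.0.16 (R 4.3.3): TMM scaling (factors 0.95 to 1.05), filterByExpr (25117 genes removed), 1 quasi-likelihood model that gives each of the 5 groups a mean and uses all 17 libraries, 12 residual degrees of freedom, common dispersion 0.0106. Adjusted p-values are two-sided after Benjamini-Hochberg adjustment over all 15931 genes, with a threshold of 0.05. CPM uses TMM-scaled totals, ± beside a log2 fold change is its standard error, ± beside CPM an SD, and log2 CPM has a prior count of 2. The fit was tested on simulated data. The number of fragments limits precision: a level of 2.28 CPM rests on 31 fragments.

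The genes and lists were chosen with earlier results of these data known. All 10 genes are named in every comparison, with up to 3 called genes per list in order of p, Arntl, Nr1d1 and Nr1d2, and the genes most alike by Pearson r. Myh7 was named after its values were seen. Some results for genes of the lists are not reported here. Alternatives were RLE scaling, DESeq2 1.42.0, no filter, a replicate block, library total as a covariate, the compared groups alone, and leaving out libraries. Lists and likenesses without TAC 6 week vehicle 1 were added after the data were seen.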

Additional observations from a re-analysis of the deposited data

Results flagged for a closer look

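Ciart was 11.4 CPM in TAC 1 week vehicle 4, apart from the other 3 libraries of that group at 7.38 to 7.90 CPM, and the gap was 0.87 of the whole range of the group. Each of the 20 levels of the family in the groups of 4 libraries was examined for such a gap, and chance flags about 1 in 20. Without that library the log2 fold change of Ciart in TAC 1 week vehicle against Control was -0.95, against -0.76 with it.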

How the results depend on the processing

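Of 1070 values of single genes under other settings, 914 kept their direction and side of the threshold, 101 passed only under the other setting, 29 no longer passed and 26 changed sign. No group level moved by more than its SD under plain totals or RLE scaling. The counts of genes of the family called, with all libraries 2, 2, 2, 3, 0, 0 and 0, changed as follows. For TAC 1 week vehicle against Control the count was 3 with DESeq2 and 3 with no filter (Tef gained in both), 1 with the replicate block (Hlf), 7 with the compared groups alone, 7 with TAC 6 week vehicle 1 left out of the shared spread (chosen after seeing the data), 8 with 3 libraries left out together (TAC 6 week vehicle 1, TAC 1 week SR9009 2 and Control 2), and 0 to 2 with single libraries left out. For TAC 6 week vehicle against Control it was 1 with library total as a covariate (235 genes called in all, against 3292), 3 without the 3 libraries (Per2 gained) and 2 to 3 with single libraries left out. For TAC 6 week against TAC 1 week vehicle it was 1 with that covariate (85 genes in all, against 1925), 10 without the 3 libraries, and 2 to 9 with single libraries left out. For TAC 6 week against TAC 1 week SR9009 it was 5 with DESeq2, 7 with no filter, 1 with the replicate block, 1 with the covariate, 7 without the 3 libraries, 6 with the groups alone, 7 without TAC 6 week vehicle 1 in the spread, and 1 to 2 with single libraries left out. For SR9009 against vehicle at 1 week it was 2 without the 3 libraries and 0 to 0 with single libraries left out. At 6 weeks it was 1 with DESeq2, 2 with no filter, 9 without the 3 libraries and 0 to 9 with single libraries left out, and for the interaction 4, 4, 9 and 0 to 9. All genes called with single libraries left out ranged from 993 to 3117, 1878 to 4062, 751 to 2628, 447 to 2025, 0 to 3, 2 to 1482 and 1 to 957 in the same order. With the 3 libraries left out, all genes called were 3117, 4219, 3343, 1096, 7, 2160 and 1058. With DESeq2 they were 2476, 3174, 2061, 1653, 13, 259 and 198. The cause of these shifts was not tested.

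Signs changed mostly near 0. With single libraries left out, Cry1 at 1 week against Control ran from -0.01 to 0.09. At 6 weeks against Control, Per1 ran from -0.60 to 0.13, Cry2 from -0.42 to 0.04, Ciart from -0.45 to 0.30 and Tef from -0.35 to 0.22, each highest without TAC 6 week vehicle 1. Between the vehicle groups Per1 ran from -0.24 to 0.49, Per3 from -0.13 to 0.66 and Dbp from -0.39 to 0.41, again highest without it. Between the SR9009 groups Cry1 ran from -0.11 to 0.13. For SR9009 at 1 week Per1 ran from -0.04 to 0.05 and Nfil3 from -0.07 to 0.05. Without the 3 libraries, Ciart was 0.05 and Tef 0.13 at 6 weeks against Control, Dbp 0.41 between the vehicle groups, and Per1 -0.02 and Nfil3 0.04 for SR9009 at 1 week. With the covariate Per1 was -0.11 between the vehicle groups and -0.10 for SR9009 at 1 week, and with the replicate block it was 0 between the vehicle groups.

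No sign was seen that replicate numbers pair the libraries. Deviations of same-numbered libraries had r from -0.445 to 0.264 over 31 pairs, 1 of them over 0.1. Those of other numbers had r from -0.259 to 0.382 over 84 pairs, 8 of them over 0.1. Weak correlations cannot exclude a pairing, and the labels do not say. In edgeR's all-gene counts, the replicate block gave 1621 against 2362 calls at 1 week against Control and 782 against 1426 between the SR9009 groups. Across the settings DESeq2 and no filter raised all genes called for SR9009 at 6 weeks from 27 to 259 and 242, and the interaction from 19 to 198 and 102.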
